A study of Xenopus tropicalis with 8 samples.

Results

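Nuclear genes for protein synthesis were followed in embryos of the western clawed frog Xenopus tropicalis exposed to Disperse Yellow 7 (DY7), a textile dye of the azo class. The genes were taken by name: translation initiation factors (symbols starting eif), elongation factors (eef, gfm), cytosolic ribosomal proteins (rpl, rps), mitochondrial ribosomal proteins (mrpl, mrps) and aminoacyl-tRNA synthetases (ending ars1 for cytosolic and ars2 for mitochondrial forms). Some symbols that match were left out, among them the kinases of the rps6k family. The array carried probes for 51 such genes, 1 probe each, of 257 with such symbols in the reference gene table. Of these 51, 39 were measured, which means that every array of the DY7 group, or every array of the control group, read their probe well above background. These 39 stand among 3436 measured genes with a name.

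The DY7 group was 4 samples of embryos exposed to 887 ppm DY7, and the control group was 4 samples of embryos labelled as having no treatment, with no vehicle named. Both groups are labelled as developmental stages 12 to 46, with no strain, sex or line given. Total RNA of each sample was hybridised to its own Agilent single-colour (Cy3) array, with 4 arrays on each of 2 slides, and each slide held DY7 and control samples of the same 2 replicate numbers. The labels do not say whether the samples came from separate clutches or tanks, so the p-values measure the spread between these samples, which may in part be technical.

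Cells make protein on cytosolic ribosomes, where eIF factors bring the ribosome and the initiator tRNA to the start codon and eEF factors move it along the message. Mitochondria keep a separate set of ribosomes, whose proteins are encoded in the nucleus and whose products are core subunits of the respiratory chain and the ATP synthase. Aminoacyl-tRNA synthetases charge tRNAs with their amino acids, in most cases through separate enzymes for the cytosol and the mitochondrion.

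Levels are log2 processed signals relative to the 75th percentile of the same array, so that 0 is the signal of a probe at that percentile. Fold changes and differences are also in log2 throughout, DY7 minus control, except where written with the ending -fold. Different probes bind with different strength, so levels are compared between samples of 1 gene and never between genes. The 75th percentile signal ran from 126 to 202 on the DY7 arrays and from 162 to 327 on the control arrays. Arrays correlated at 0.980 to 0.993 within DY7, 0.972 to 0.995 within the controls and 0.955 to 0.987 between groups. Control 2 stood apart, with 51.6% of all probes well above background, against 64.1% to 75.9% on the other arrays. All 39 genes were detected on the other 7 arrays, and on control 2 74.4% of them were. The 10 genes undetected there passed through the DY7 group, which favours genes that are higher in DY7. The calls among the 29 genes detected on all 8 arrays are therefore also given apart. In bulk RNA, fewer cells of a type and less RNA per cell cannot be told apart.

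In DY7 embryos 10 of the 39 genes rose and 0 fell (25.6% higher, against 9.06% of all 20289 tested probes called higher and 5.07% called lower). The rises were those of 5 large-subunit proteins of the mitochondrial ribosome (mrpl33, mrpl57, mrpl54, mrpl34, mrpl37), 2 small-subunit proteins (mrps27, mrps12), the mitochondrial elongation factor gfm1, and the initiation factors eif3k and eif2a. They were modest, from 1.33-fold for eif2a to 1.73-fold for mrpl33. None of 3 cytosolic and 6 mitochondrial tRNA synthetases was called, nor any of 3 genes with eef and 2 with rpl or rps symbols. Of all tested probes 14.1% were called in either direction. Classes this small may hold no call at that share, so the lack of calls is not read as a contrast. A call is a Benjamini-Hochberg adjusted p under 0.05 over all tested probes, from limma's moderated test with 4 arrays per group. Of the 29 genes detected on all 8 arrays 8 rose and 0 fell (27.6% higher, against 8.81% higher and 5.92% lower among the tested probes detected on all 8 arrays). The 4 DY7 arrays lay above the 4 control arrays without overlap for 12 genes (30.8%, against 12.7% of all tested probes), and for 0 genes did they lie below (against 8.86%). The count of 12 includes gfm1, mrps27 and eif2b5, which passed the filter through the DY7 group only. Among the 29 genes detected on all 8 arrays 9 lay above (31.0%) and 0 below. The matching share of probes detected on all 8 arrays was not computed.

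The median log2 fold change of the 39 genes was 0.22, against 0.058 over all tested probes. Among the 29 genes detected on all 8 arrays it was 0.20, against 0.018 over the probes so detected. Of the 39, the 15 cytosolic genes had a median of 0.23 and the 24 mitochondrial ones of 0.20. Calls came from 2 of the cytosolic and 8 of the mitochondrial genes, a difference that was not tested. Probes that the array design names as specific gave 7 rises among 24 genes (29.2%, against 7.85% of tested specific probes called higher). Probes that it names as cross-hybridising, which may read other transcripts too, gave 3 rises among 15 genes, namely those of mrpl33, eif3k and eif2a, against 10.3% of tested cross-hybridising probes called higher. The median log2 fold change was 0.28 on the specific and 0.064 on the cross-hybridising probes. However, 8 of the 24 genes with specific probes passed the filter through the DY7 group only, and 2 of the 15 others. The counts and medians by probe kind may thus in part reflect the filter, and their difference was not tested.

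**Figure D1:**
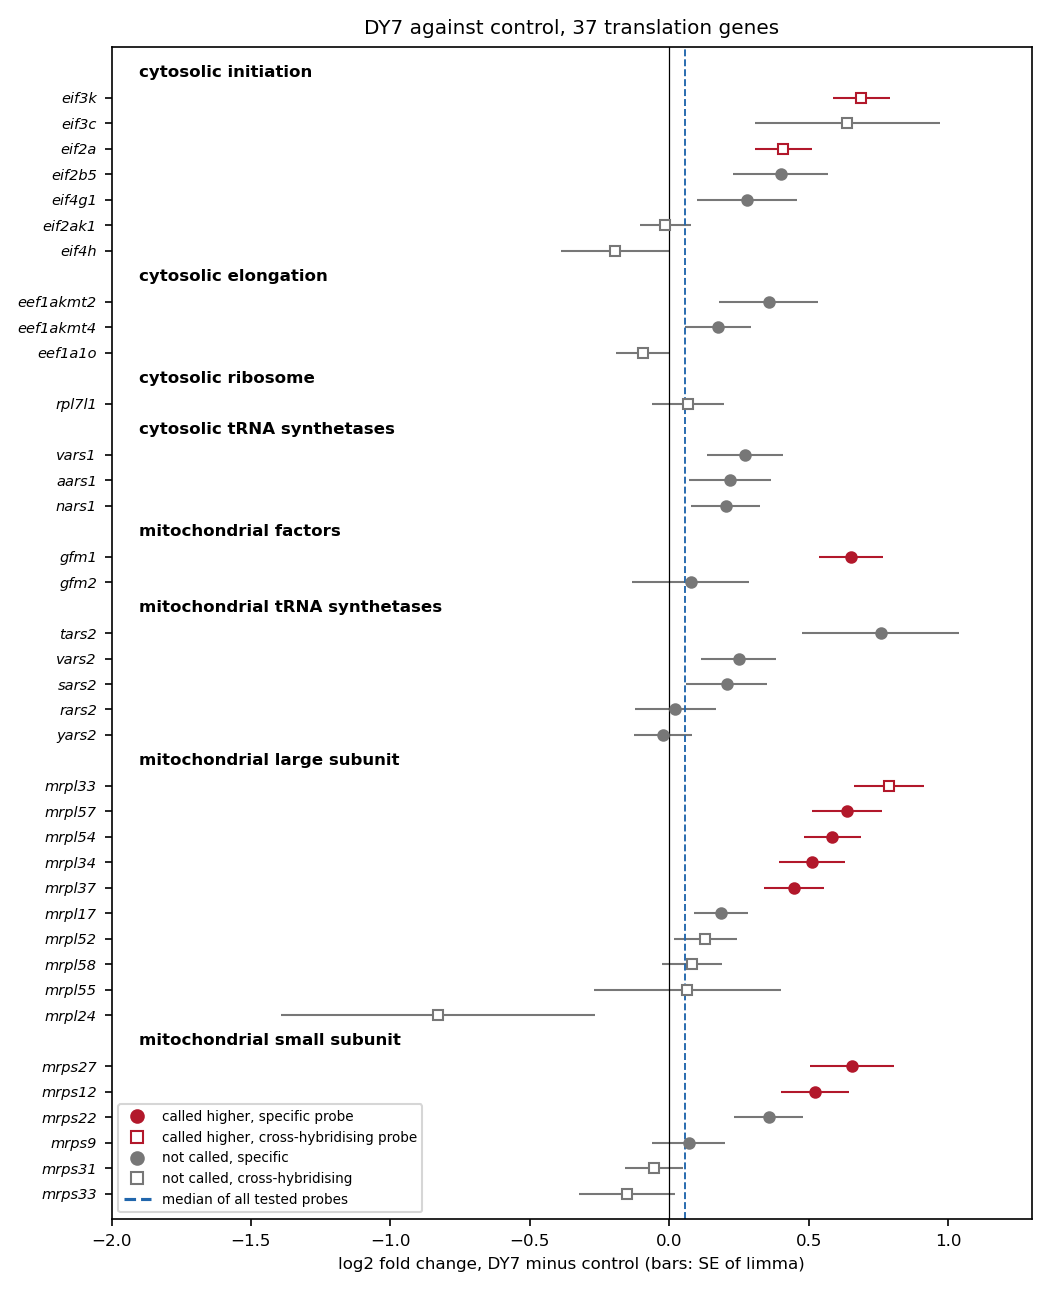
Log2 fold change (DY7 minus control, x axis) of 37 of the 39 genes, grouped by role down the page, with bars for limma's standard error. Filled circles are specific probes, open squares cross-hybridising ones, and the 10 called genes are in red; they lie between 0.41 and 0.79, to the right of the dashed line at the median of all tested probes (0.058).

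The large subunit of the mitochondrial ribosome gave the most calls, 5 of 10 measured genes, against 9.06% of all tested probes called higher. Its median log2 fold change was 0.32. Each class holds few genes, and differences between classes were not tested. The largest was that of mrpl33, the counterpart of a small zinc-binding protein of the bacterial ribosome. On its cross-hybridising probe mrpl33 read 0.94, 0.70, 0.84 and 1.05 on DY7 arrays 1 to 4, against -0.11, 0.027, 0.12 and 0.34 on control arrays 1 to 4. Every DY7 array lay above every control array, and the log2 fold change was 0.79 ± 0.12 (SE, n = 4 arrays per group, adjusted p = 0.00722).

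The probe of mrpl57, a component found in mitochondrial but not in bacterial ribosomes, read 3.75, 3.67, 3.61 and 3.71 in DY7 and 3.22, 3.15, 2.71 and 3.11 in controls. The DY7 arrays lay within a narrow band, and control 3 was the lowest of the controls (fold change 0.64 ± 0.12, adjusted p = 0.0142). For mrpl54, another protein without a bacterial counterpart, the values were 1.51, 1.65, 1.65 and 1.57 in DY7 and 1.16, 0.88, 0.90 and 1.10 in controls. The groups did not overlap (fold change 0.58 ± 0.10, adjusted p = 0.00973).

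The gene mrpl34, counterpart of a very small bacterial large-subunit protein, read 3.42, 3.54, 3.31 and 3.41 in DY7 and 2.92, 3.13, 2.66 and 2.93 in controls. Control 2 came closest to the DY7 arrays (fold change 0.51 ± 0.12, adjusted p = 0.0238). The gene mrpl37, whose product is specific to mitochondrial ribosomes, read 3.23, 3.16, 3.06 and 3.21 in DY7 and 2.86, 2.71, 2.49 and 2.81 in controls, again without overlap (fold change 0.45 ± 0.11, adjusted p = 0.0279). All 4 of these specific probes were detected on all 8 arrays.

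The other 5 large-subunit genes were not called. The arrays of mrpl17 did not overlap either, but the groups differed little, at -1.31 ± 0.071 in DY7 and -1.49 ± 0.11 in controls (SD, n = 4 each; fold change 0.19 ± 0.096, adjusted p = 0.203). The log2 fold changes of mrpl52 and of mrpl58, a peptidyl-tRNA hydrolase that frees stalled mitochondrial ribosomes, were 0.13 ± 0.11 and 0.081 ± 0.11 (adjusted p = 0.444 and 0.62). On its dim cross-hybridising probe mrpl55 read -3.79, -2.68, -3.53 and -3.02 in DY7 and -3.16, -4.27, -3.01 and -2.84 in controls, so that its arrays scattered over more than the difference of 0.064 ± 0.33 (adjusted p = 0.912). The value of mrpl24, at -0.83 ± 0.56 (adjusted p = 0.323), rested on control 2: this array read 1.78, while the other controls and the DY7 arrays lay between -1.40 and -0.71. Without control 2 it was -0.14 (adjusted p = 0.527).

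In the small subunit of the mitochondrial ribosome 2 of 6 measured genes rose, against 9.06% of all tested probes. The median log2 fold change was 0.21. The gene mrps27 encodes a pentatricopeptide repeat protein that binds mitochondrial RNA in human cells. It read -1.24, -1.55, -1.09 and -1.02 in DY7 and -1.92, -2.15, -1.83 and -1.61 in controls; DY7 2 came nearest to the controls, and control 2 was not well above background (fold change 0.66 ± 0.15, adjusted p = 0.0242). The gene mrps12, counterpart of the bacterial protein at the decoding centre, read 0.81, 0.66, 0.53 and 0.80 in DY7 and 0.36, 0.072, -0.039 and 0.32 in controls, without overlap (fold change 0.52 ± 0.12, adjusted p = 0.0252).

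Of the others, mrps22 read 1.01 ± 0.14 in DY7 and 0.65 ± 0.19 in controls (fold change 0.36 ± 0.13, adjusted p = 0.0841). DY7 3 and control 4 overlapped, but within each replicate number DY7 was higher, and with the replicate number as a block mrps22 was called (adjusted p = 0.036). The log2 fold changes of mrps9 and mrps33 were 0.069 ± 0.13 and -0.15 ± 0.17 (adjusted p = 0.736 and 0.563). For mrps33 control 2 read 3.84, above the other 7 arrays (3.01 to 3.24), and without it the difference was 0.031. The cross-hybridising probe of mrps31 was nearly constant in DY7, at 1.79, 1.77, 1.78 and 1.79, and more spread in controls, at 1.95, 1.80, 1.62 and 1.97 (fold change -0.055 ± 0.10, adjusted p = 0.73).

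The mitochondrial elongation factors are gfm1, which moves the ribosome along the message, and gfm2, which acts with a recycling factor to split it after termination. The gene gfm1 rose: its specific probe read -2.16, -1.94, -1.99 and -1.95 in DY7 and -2.71, -2.89, -2.55 and -2.49 in controls (fold change 0.65 ± 0.12, 1.57-fold, adjusted p = 0.0103). The groups lay well apart, although the probe was dim and control 2 was not well above background. The gene gfm2 read -3.05, -2.85, -2.79 and -2.62 in DY7 and -2.71, -3.57, -2.76 and -2.57 in controls, with control 2 again the lowest (fold change 0.077 ± 0.21, adjusted p = 0.821). Whether gfm1 and gfm2 differ from each other in their change was not tested.

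**Figure D2:**
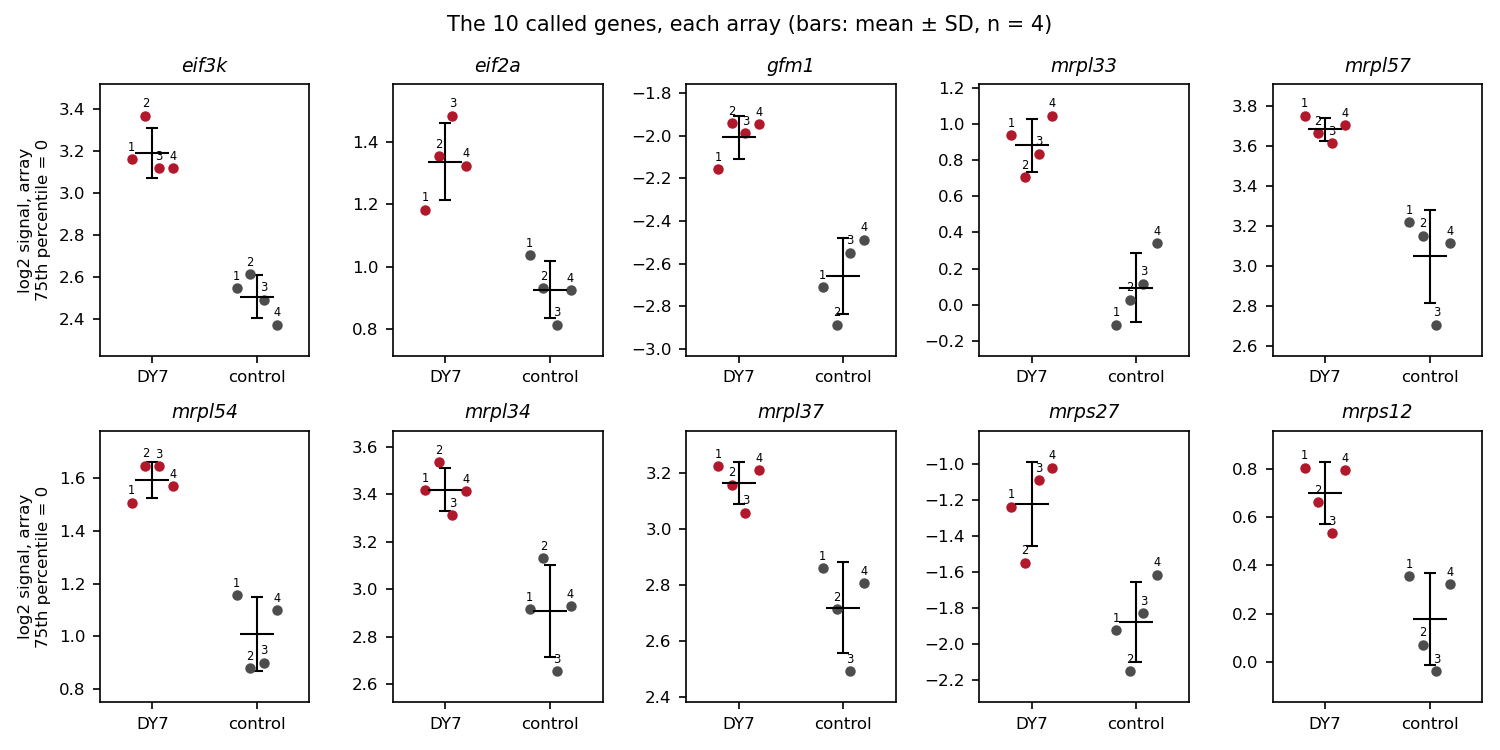
Level of each of the 10 called genes (y axis, log2 signal with the 75th percentile of the array at 0; each panel has its own scale) on DY7 arrays (left, red) and control arrays (right, grey), with the replicate number beside each point and bars for mean ± SD of 4 arrays. In each panel the DY7 points lie above the control points, most narrowly for mrps27 (-1.55 on DY7 2, -1.61 on control 4).

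Among the genes with eif symbols, grouped here under cytosolic initiation, 2 of 7 measured genes rose, against 9.06% of all tested probes. Both were read by cross-hybridising probes, of which 10.3% were called higher among all those tested. The gene eif3k encodes a peripheral subunit of eIF3, the large complex that binds the small ribosomal subunit and recruits the message. Its cross-hybridising probe read 3.16, 3.37, 3.12 and 3.12 in DY7 and 2.54, 2.61, 2.49 and 2.37 in controls. DY7 2 was the highest array, and all DY7 arrays lay above all controls (fold change 0.69 ± 0.10, 1.61-fold, adjusted p = 0.00584). The gene eif2a encodes an initiator tRNA binding protein that acts apart from the eIF2 complex and is not its alpha subunit. It read 1.18, 1.35, 1.48 and 1.32 in DY7 and 1.04, 0.93, 0.81 and 0.92 in controls on a cross-hybridising probe (fold change 0.41 ± 0.10, adjusted p = 0.0298). The gap between DY7 1 and control 1 was the narrowest.

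A further eIF3 subunit gene, eif3c, had a similar mean difference, 0.64 ± 0.33, with widely scattered arrays: -2.80, -1.69, -1.24 and -2.39 in DY7 and -2.87, -3.15, -2.28 and -2.36 in controls (adjusted p = 0.206). DY7 2 and DY7 3 lay above all controls, and DY7 1 and DY7 4 among them. The gene eif2b5 encodes the catalytic subunit of eIF2B, the exchange factor that recharges eIF2 with GTP. It was higher on every DY7 array (-2.33, -2.30, -2.31 and -2.42) than on any control (-2.68, -3.29, -2.50 and -2.50), but control 2 lay far below the other controls and was not well above background, and the difference was not called (fold change 0.40 ± 0.17, adjusted p = 0.136).

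The gene eif4g1 encodes the scaffold that joins the cap-binding protein to the ribosome. Its difference was 0.28 ± 0.18 (adjusted p = 0.296, and 0.0423 with the replicate number as a block, where it was called). For eif4h, a helper of the eIF4A helicase, it was -0.19 ± 0.19 (adjusted p = 0.507). The gene eif2ak1 encodes the haem-regulated kinase that phosphorylates eIF2 and so lowers general initiation. It read -0.60, -0.55, -0.64 and -0.58 in DY7 and -0.52, -0.71, -0.58 and -0.49 in controls on a cross-hybridising probe, with all DY7 arrays inside the control range (fold change -0.014 ± 0.091, adjusted p = 0.928).

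Of 3 genes with eef symbols, grouped here under cytosolic elongation, none was called, against 14.1% of all tested probes called in either direction. The gene eef1a1o, an oocyte-type form of the factor that carries charged tRNAs to the ribosome, read 2.38, 2.28, 2.32 and 2.40 in DY7 and 2.63, 2.36, 2.37 and 2.41 in controls on a cross-hybridising probe (fold change -0.094 ± 0.098, adjusted p = 0.524). The genes eef1akmt2 and eef1akmt4 are named for lysine methyltransferases that modify that factor, and their log2 fold changes were 0.36 ± 0.18 and 0.17 ± 0.12 (adjusted p = 0.188 and 0.32).

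Genes with rpl or rps symbols were hardly represented, with 2 genes measured and neither called, against 14.1% of all tested probes called in either direction. The gene rpl7l1, a relative of the large-subunit protein L7, read -0.89, -1.20, -1.09 and -0.79 in DY7 and -1.14, -1.19, -1.09 and -0.82 in controls on a cross-hybridising probe (fold change 0.067 ± 0.13, adjusted p = 0.739), and the groups overlapped.

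No tRNA synthetase was called, 0 of 3 cytosolic and 0 of 6 mitochondrial genes, against 14.1% of all tested probes called in either direction. At an unadjusted p under 0.05 in limma there was 1, tars2. The cytosolic genes aars1, nars1 and vars1 charge tRNAs with alanine, asparagine and valine. Their log2 fold changes were 0.22 ± 0.15, 0.20 ± 0.12 and 0.27 ± 0.14, with adjusted p-values of 0.318, 0.28 and 0.193. For nars1 the values were 1.57, 1.11, 1.28 and 1.57 in DY7 and 1.22, 1.15, 1.10 and 1.25 in controls. DY7 1 and DY7 4 were the highest arrays, DY7 3 lay just above the highest control, and DY7 2 lay among the controls. DY7 1 and DY7 4 were also the highest arrays for aars1, a gene singled out after its values were seen, at 2.60, 2.26, 2.03 and 2.60 in DY7 and 2.17, 2.17, 1.99 and 2.30 in controls.

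The mitochondrial synthetases were spread around the median of all tested probes. The largest difference was that of tars2 (threonine), 0.76 ± 0.28, with -2.94, -2.25, -2.09 and -2.69 in DY7 and -3.34, -3.98, -2.69 and -2.98 in controls on a dim specific probe (adjusted p = 0.0975). Its DY7 2 and DY7 3 arrays lay above all controls, while DY7 1 and DY7 4 overlapped with them, and control 2 was the lowest. The differences of vars2 (valine) and sars2 (serine) were 0.25 ± 0.13 and 0.21 ± 0.15 (adjusted p = 0.217 and 0.344). The gene rars2 (arginine) read -2.51, -2.54, -2.39 and -2.09 in DY7 and -2.28, -2.46, -2.68 and -2.19 in controls, with the groups interleaved (fold change 0.022 ± 0.14, adjusted p = 0.932). The difference of yars2 (tyrosine) was -0.023 ± 0.11 (adjusted p = 0.899).

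**Figure D3:**
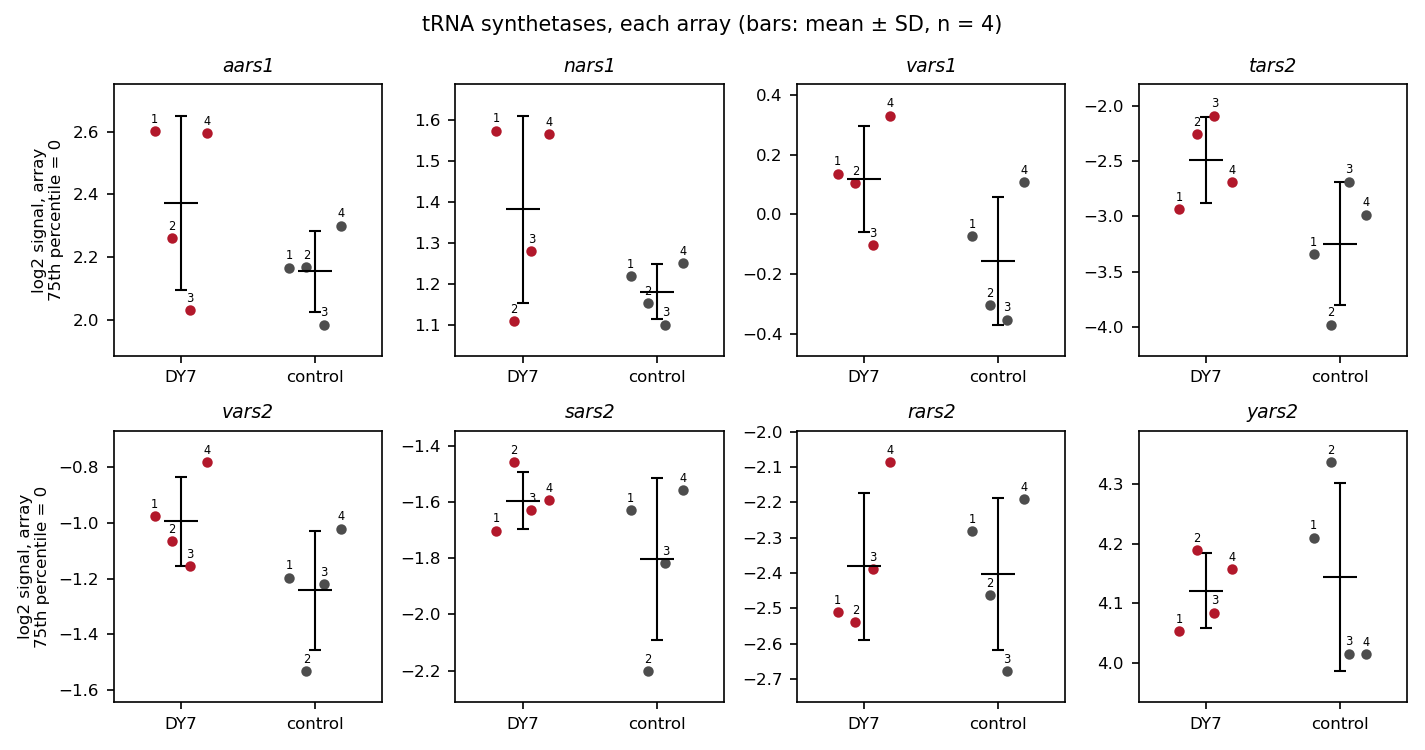
Level of 8 tRNA synthetase genes (y axis, log2 signal with the 75th percentile of the array at 0; each panel has its own scale) on DY7 arrays (left, red) and control arrays (right, grey), with replicate numbers beside the points and bars for mean ± SD of 4 arrays. The groups overlap in every panel; DY7 1 and DY7 4 are the highest points for aars1 (2.60 each) and nars1 (1.57 each).

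The 12 genes on the array that were not measured were wars1, cars2, lars2, mars2, eefsec, eif4e1b, eif5b, mrpl19, mrpl49, mrps14, mrps18b and mrps23. Of these, 9 lay well above background on 0 arrays of either group. The exceptions were wars1 and mars2, detected on 1 DY7 and 1 control array each, and eif4e1b, a cap-binding protein of oocytes and early embryos, detected on 2 DY7 and 3 control arrays. No level is given for them.

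The replicate numbers were treated as pairs across groups, although the labels do not state a pairing. Within pairs, DY7 was higher in 4 of 4 pairs for 23 of the 39 genes, against 31.3% of all tested probes. The 23 include eef1akmt2, eif2b5, tars2, gfm1 and mrps27, which passed the filter through the DY7 group only. In the pair with control 2 their differences were 1.13, 0.99, 1.73, 0.94 and 0.60, the largest pair difference of each gene except mrps27. The count of 23 may thus in part reflect the filter, and it was not made apart for genes detected on every array. Blocking on the replicate number gave 12 genes higher and 0 lower, the added ones being mrps22 and eif4g1, and the shares of all tested probes were also larger in that fit, with 16% higher and 9.25% lower. Because the groups did not overlap for any of the 10 called genes, their differences within pairs and slides are positive by construction. Within slide 1 they ran from 0.28 (eif2a) to 0.86 (mrpl33), and within slide 2 from 0.49 (mrpl37) to 0.75 (mrpl57). No gene of the 39 was called in limma's test within a slide, with 2 arrays against 2, where 9 of them in slide 1 and 10 in slide 2 had an unadjusted p under 0.05, against 17% and 16.3% of all tested probes.

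Calls for eif3k, gfm1, mrpl33, mrpl57 and mrpl54 held whichever array was left out, with adjusted p-values of at most 0.04. The call for mrps27 was lost without DY7 3 (adjusted p = 0.071) or control 1 (0.0682), and that for mrps12 without DY7 1 (0.0556) or DY7 2 (0.0606). That for mrpl34 was lost without DY7 2 (0.0683), control 1 (0.0634) or control 4 (0.0647). That for mrpl37 was lost without DY7 1 (0.0591), DY7 2 (0.0689), DY7 3 (0.0556) or control 4 (0.0626). That for eif2a was lost without DY7 2 (0.0758), DY7 3 (0.0858), control 1 (0.0562), control 3 (0.0592) or control 4 (0.083). Leaving out control 2, the array with the fewest detected probes, kept all 10 calls; the share of higher calls among all called probes was then 52.4%, against 64.1% with all arrays. The count of rises fell to 6 without DY7 2, where 714 of all 20289 tested probes were called higher, against 1839 with all arrays.

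The number of calls also depended on how arrays were scaled. When arrays were scaled to their median, the median log2 fold change was -0.059 for all tested probes and 0.10 for the 39 genes. Then 5 of the 10 rises were called (eif3k, gfm1, mrpl33, mrpl54 and mrps27). Of all 20289 tested probes 1035 were then called higher, against 1839 with the scaling used above. The share of higher calls among all called probes was 43.8% with that scaling, against 64.1%. Quantile normalization, where the share was 54.3% and 1965 probes were called higher, kept all 10, as did the authors' deposited log2 values. Without any scaling between arrays the median of all tested probes was -0.42 and that of the 39 genes -0.26, none of the 10 was called, and eif2a (-0.065) and mrpl37 (-0.028) changed sign.

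**Figure D4:**
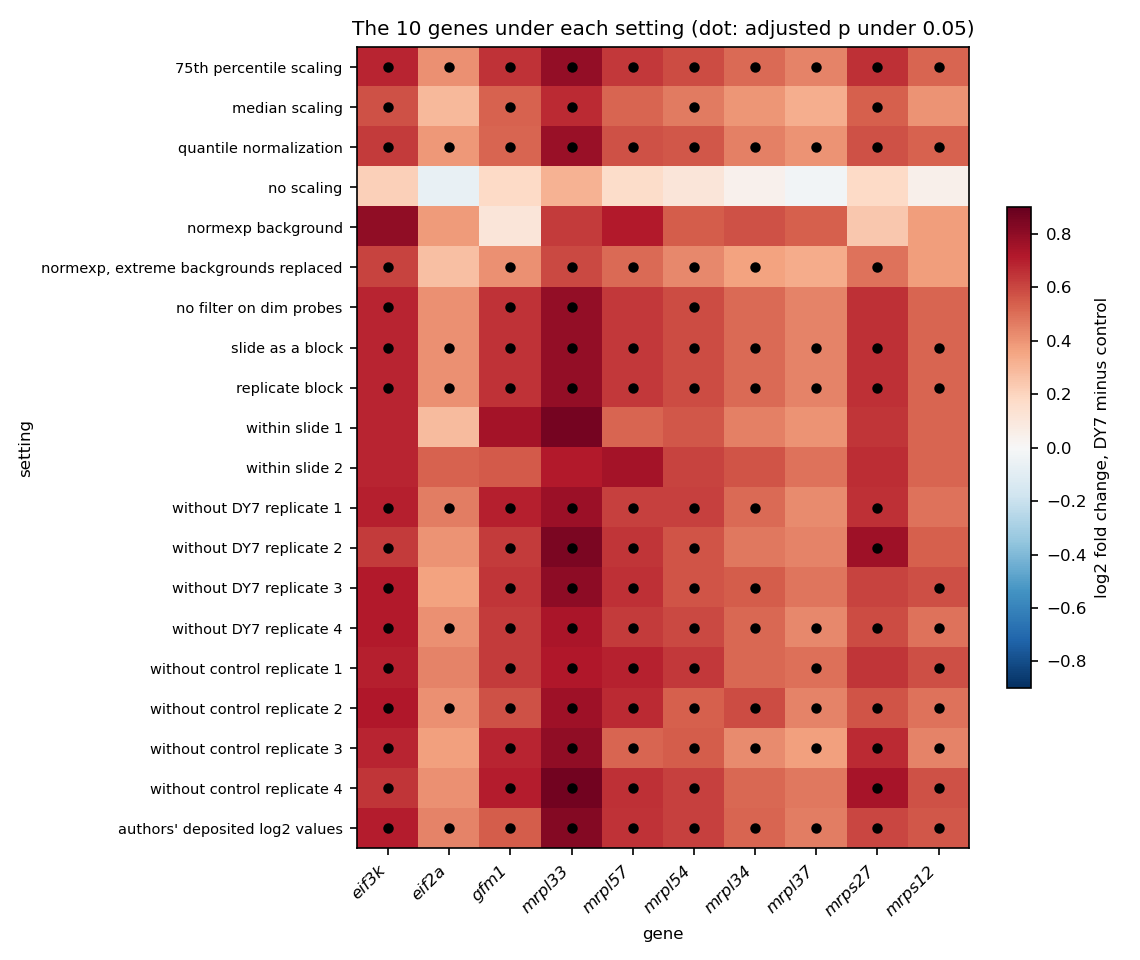
Log2 fold change (colour, DY7 minus control) of the 10 called genes (columns) under each processing setting or set of arrays (rows), with a dot where the adjusted p was under 0.05. The 5 columns of eif3k, gfm1, mrpl33, mrpl57 and mrpl54 carry dots in all 8 rows that leave out an array, and no gene carries one without scaling, with the plain normexp background correction or within a slide.

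Other genes of translation and its control were measured in smaller numbers, 18 of the genes on 5 lists, of which 2 rose and 1 fell (11.1% higher, against 9.06% of all tested probes). Blocking on the replicate number gave 6 higher and 1 lower, against 16% and 9.25% of all tested probes in that fit. Of 4 genes listed under termination, recycling and ribosome rescue, 1 rose, abcf1. This ATP-binding cassette protein is known for work with eIF2 in initiation, so the call is not that of a release or rescue factor, and the other 3 genes of the list, nemf, mtrf1l and mtrf1, were not called. The probe of abcf1 read 1.16, 1.25, 0.81 and 0.93 in DY7 and 0.48, 0.30, 0.49 and 0.44 in controls (fold change 0.61 ± 0.12, adjusted p = 0.0146). Of 5 genes listed under the TOR pathway, which couples growth signals to translation, pdpk1, a kinase upstream of Akt, rose. Its probe read -2.23, -1.94, -1.97 and -2.31 in DY7 and -3.06, -2.63, -2.75 and -2.72 in controls (fold change 0.68 ± 0.13, adjusted p = 0.0139). It was not well above background on 1 control array. The gene mknk2, placed on the same list, encodes a kinase that phosphorylates the cap-binding protein eIF4E. It fell, at 2.87, 2.70, 2.65 and 2.89 in DY7 and 3.56, 3.44, 3.31 and 3.31 in controls (fold change -0.63 ± 0.11, adjusted p = 0.00837). The groups did not overlap for any of these 3 genes, nor for the uncalled mtrf1l (DY7 higher) and trmt5 (DY7 lower, from the tRNA supply list). Over the 18 genes the DY7 arrays lay above the controls without overlap for 3 (16.7%, against 12.7% of all tested probes). They lay below for 2, against 8.86% of all tested probes.

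The remaining lists gave no call. For 2 further initiation and elongation genes the smallest p was that of guf1, a mitochondrial elongation factor (0.49 ± 0.17, adjusted p = 0.0869, called with the replicate block at 0.0176). For 4 genes of tRNA supply it was that of elac2, which trims tRNA 3′ ends (0.20 ± 0.12, adjusted p = 0.259). For 3 genes of the response to eIF2 phosphorylation it was that of slc3a2, an amino acid transporter subunit (-0.14 ± 0.13, adjusted p = 0.479, cross-hybridising probe), and the median of that list was -0.13.

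Markers of embryonic tissues also differed between the groups. Their part in the changes of translation genes was not tested. Of 13 listed markers of skeletal muscle 2 were measured and 1 fell, of 9 for neurons 2 were measured and 1 fell, of 10 for epidermis 1 was measured and fell, and of 10 for lens and retina 4 were measured and 2 fell. Of 12 for liver, gut and pancreas 5 were measured and 3 rose, and of 9 for red cells 3 were measured and 1 rose. Of all tested probes 9.06% were called higher and 5.07% lower. Sums of a list's signals are led by its brightest probes and say little of the dim ones. The summed signal of the muscle markers, in multiples of the 75th percentile signal, was 1.04 to 1.15 in DY7 and 1.85 to 2.19 in controls. For red cell markers it was 4.50 to 5.58 in DY7 and 3.47 to 4.38 in controls, for epidermis 0.790 to 0.935 in DY7 and 1.10 to 1.20 in controls, and for neurons 24.0 to 29.6 in DY7 and 31.0 to 39.1 in controls. The ranges for liver, gut and pancreas (305 to 384 in DY7, 231 to 393 in controls) and for lens and retina (1.83 to 1.91 in DY7, 1.80 to 2.49 in controls) overlapped. The sum for liver, gut and pancreas is mostly cpa1 and apob, and that for lens and retina mostly rho. The sum for skeletal muscle is mostly tnnt1, which fell (-0.996 ± 0.11, adjusted p = 0.00185), while pvalb was not called (-0.26 ± 0.25, adjusted p = 0.483). The sum for epidermis is only the cross-hybridising probe of krt78.6. The sum for red cells is mostly slc4a1, which was not called (0.41 ± 0.14, adjusted p = 0.0703), nor was slc25a37 (0.73 ± 0.25, adjusted p = 0.0785), while epor rose (0.41 ± 0.11, adjusted p = 0.0413). The sum for neurons holds nefm, which was not called (-0.30 ± 0.13, adjusted p = 0.134), and nefl, which fell (-0.48 ± 0.12, adjusted p = 0.0307). Within these lists fabp6 rose (log2 fold change 1.20 ± 0.17, adjusted p = 0.00453), and the lens crystallin gene cryga.1 fell (log2 fold change -2.13 ± 0.25, adjusted p = 0.00243; well above background on 1 of 4 DY7 arrays). Also called were serpina1 and apob, which rose (0.75 ± 0.12 and 0.55 ± 0.13, adjusted p = 0.00773 and 0.0286), and cryga.7, which fell (-1.47 ± 0.34, adjusted p = 0.0252). Not called in the liver, gut and pancreas list were cpa1 (-0.16 ± 0.22, adjusted p = 0.636) and alb (0.23 ± 0.15, adjusted p = 0.314). Not called in the lens and retina list were pde6c (0.83 ± 0.24, adjusted p = 0.0507) and rho (0.23 ± 0.10, adjusted p = 0.15), both with positive differences. The probes of pde6c and slc25a37 were well above background on 3 of 4 control arrays, so both passed the filter through the DY7 group only. None of 11 listed markers of the gastrula and of maternal RNA was measured, so the early end of the labelled stage range was not checked.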

How the data were processed

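Per the file headers, the deposited intensity values were made by the authors with Feature Extraction from Agilent (10.7.3.1 for slide 1, 10.7.1.1 for slide 2), which corrected each spot for background and spatial trend. Headers of slide 2 name JGI 4.1 as the build of the design; coordinates are left out. The deposited log2 values of the series matrix correlated at 0.986 to 1.00 with log2 of their own array's processed intensity; their column medians were 5.10 to 5.27, and the sources used here do not say how the authors centred them.

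Control spots and outlier spots were removed, replicate spots of a probe were averaged in log2, and the 75th percentile of each array was subtracted. Of 32899 probes 20289 were tested, those well above background on all 4 arrays of a group. No spot was saturated. Names came from RefSeq accessions in a reference list of genes for UCB_Xtro_10.0 (5891 probes matched), and no gene followed here had more than 1 probe. Groups were compared with limma 3.58.1 in R 4.3.3, two-sided, with Benjamini-Hochberg adjustment over all tested probes; SE is that of the group difference. The scripts were tested on simulated data.

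Deviations from the group mean correlated at 0.306, 0.107, 0.455 and 0.449 between DY7 and control arrays of replicate numbers 1 to 4. The numbers, taken from the titles, were therefore treated as pairs in an alternative fit. Arrays of the same number also shared a slide, and arrays of different numbers were not compared in this way. These values therefore do not tell a pairing from the slide. Other alternatives changed the scaling, background correction, filter, adjustment, block and set of arrays. The normexp alternatives used the median spot signal, since no mean signal column was given, with an offset of 50; in the second, local backgrounds over 3 times the array median were replaced by that median (28 spots on control 3, 13 on control 2, at most 2 elsewhere).

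The genes and lists were chosen with earlier results of these data known. Of the 39 measured genes 37 are described, and the other 2 count in the totals but are not reported here; array values are given for called genes and for the smallest fold change of each symbol prefix, and for eif3c, eif2b5, tars2 and aars1, chosen after their values were seen. Of the lists of other translation genes, values are given for called genes, or in a list with no call for the gene with the smallest p. Of the marker lists all measured genes are named. A planned description of promoter motifs was not made, since no promoter sequences were used here.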

Additional observations from a re-analysis of the deposited data

Results flagged for a closer look

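The search for outlying arrays covered the 37 described genes and abcf1, pdpk1, mknk2, guf1, elac2 and slc3a2. Other genes named above, such as the tissue markers, were not examined. Of the 86 groups of 4 arrays examined, 3 held an array far from its 3 neighbours by Dixon's criterion, where chance alone would give about 4.3. On DY7 2, eif3k read 3.37, while the other DY7 arrays lay between 3.12 and 3.16; without that array its fold change was 0.63 and it was still called (adjusted p = 0.0179). On control 2, mrpl24 read 1.78, with the other controls between -1.13 and -0.71. On DY7 4, elac2 read -0.80, with the other DY7 arrays between -1.10 and -1.06.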

How the results depend on the processing

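The 10 rises kept their direction under every alternative other than no scaling. Because the groups did not overlap for these genes, only a change of scaling, background correction or values could have turned a sign. Their direction was fixed in advance where the arrays, block, filter or adjustment changed. All 10 calls held with quantile normalization, the slide block, the replicate block, the authors' deposited log2 values and adjustment over named genes. The replicate block changed no call among the 39 genes other than adding mrps22 and eif4g1. The number of genes higher was 5 with median scaling and 4 without the filter on dim probes (fewer calls over more probes). It was 7 with normexp after replacing extreme backgrounds, and 0 with plain normexp, without scaling or within slide 1 or slide 2. When an array was left out it ranged from 6 to 10, and no such fit gave a gene lower. Probes called higher in these fits were 1035 of 20289 with median scaling and 336 of 32832 without the filter. They were 956 with normexp after replacing extreme backgrounds, 6 with plain normexp, 34 without scaling, 1 within slide 1 and 0 within slide 2. With an array left out they numbered 714 to 1995, against 1839 with all arrays. Without scaling 1 gene was lower, mrpl24 (-1.30), and 685 of the 20289 tested probes were called lower. Calls lost after the replaced normexp were those of eif2a, mrpl37 and mrps12. The authors' deposited log2 values added calls for mrps22 and tars2 (adjusted p = 0.0351 and 0.0356). The cause was not tested for any of these. Over all probes, against 2867 (493 over named genes, 3 over the other translation genes), the calls were 719 (119 and 1) without scaling, 14 (6 and 0) with plain normexp, 1454 (245) with the replaced normexp, 562 (111 and 1) without the filter, 5124 (857 and 7) with the replicate block, 6 (3 and 0) within slide 1 and 0 (0 and 0) within slide 2, where 3308 probes had an unadjusted p under 0.05. Median scaling gave 2365 probes, 431 named genes and 3 of the other translation genes. Leaving out an array gave 1091 to 3323 probes, 198 to 559 named genes and 3 to 4 of the other translation genes.

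Changes of sign were otherwise seen for genes called in neither setting. Without scaling these read mrpl52 -0.34, mrpl58 -0.39, nars1 -0.27, eif4g1 -0.19, sars2 -0.27, mrps22 -0.12, eif2b5 -0.074, eef1akmt4 -0.30, rars2 -0.45, mrpl55 -0.41, vars1 -0.20, aars1 -0.26, gfm2 -0.40, vars2 -0.23, mrps9 -0.40, eef1akmt2 -0.12, rpl7l1 -0.41, mrpl17 -0.29 and elac2 -0.27, beside eif2a -0.065 and mrpl37 -0.028. With median scaling they were mrpl58 -0.035, rars2 -0.095, mrpl55 -0.052, gfm2 -0.039, mrps9 -0.047 and rpl7l1 -0.050, and with quantile normalization rars2 -0.092, mrpl55 -0.13 and gfm2 -0.093. Plain normexp gave sars2 -0.032, rars2 -0.17, mrpl55 -0.053, gfm2 -0.14, yars2 0.15, mrps9 -0.033, eef1akmt2 -0.012, rpl7l1 -0.018, eef1a1o 0.051, mrpl17 -0.0011, mrps31 0.0094 and slc3a2 0.020, and the replaced normexp eif4h 0.032 and mrpl58 -0.047. Within slide 1 they were rars2 -0.15 and eif2ak1 0.045, within slide 2 mrpl55 -0.35, gfm2 -0.036 and yars2 0.11, and in the authors' deposited values rars2 -0.089, mrpl55 -0.12 and gfm2 -0.073. With an array left out the ranges that crossed 0 were -0.060 to 0.015 for eif2ak1, -0.15 to 0.19 for gfm2, -0.25 to 0.24 for mrpl55, -0.25 to 0.031 for mrps33, -0.0022 to 0.16 for mrps9, -0.076 to 0.093 for rars2, -0.0012 to 0.15 for rpl7l1 and -0.066 to 0.041 for yars2.

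The number of arrays and the low signal of some probes limit the precision: 10 of the 39 genes were not well above background on control 2, among them the called gfm1 and mrps27.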
